A study of Mus musculus with 18 samples.

Results

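The cell cycle and proliferation genes examined here were 38 genes that carry out or mark DNA replication and cell division. They were taken from the deposited gene table by symbol, and all 38 were found among its 33977 genes. By role they comprised 9 genes of replication licensing and origin firing, 6 of the replication fork and nucleotide supply, and 3 of the G1/S step. A further 8 encoded G2/M cyclins, kinases and a transcription factor, 4 belonged to the spindle checkpoint and the anaphase-promoting complex, 7 to the kinetochore, spindle and cytokinesis, and 1 was the marker Mki67. The samples were colon RNA from ICR mice, an outbred laboratory strain, after 44 days of saline (NC), of a compound Suanzaoren capsule given by gavage (FFZR), or of the fermented green tea Jinhua Hecha, also given by gavage (JHHCG). Each treatment had 3 libraries whose titles carry the letter C and 3 whose titles carry the letter X. The labels do not explain the letter, so the libraries were handled as set C and set X. The comparisons ask whether the genes differed between tea, capsule and saline within each set, over both sets, and between the sets.

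The colon lining is renewed throughout life by dividing cells in the lower crypt, and cells leave the cycle as they move up to the surface. In G1 the Mcm2 to Mcm7 proteins are loaded on DNA as the ring-shaped replicative helicase by Cdc6 and Cdt1. Cyclin E and the transcription factor E2f1 then drive entry into S phase, when Pcna clamps the polymerases to DNA and ribonucleotide reductase supplies nucleotides. Cyclin B with Cdk1, together with the Aurora and Polo kinases, starts mitosis, and the anaphase-promoting complex ends it once the spindle checkpoint is satisfied. Genes of the G1/S step are known as targets of E2F factors, and genes of mitosis as targets of Foxm1, B-Myb and NF-Y. Promoters of mitosis genes often hold the cell cycle genes homology region (CHR) and CCAAT boxes.

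Promoters from RefSeq (GRCm38.p6, 250 bases before to 50 after the start) were matched for 31 of the 38 members. No promoter was matched for Aurkb, Ccne2, Kif20a, Ccna2, Foxm1, Mcm4 and Gins2. The letters searched on both strands were TTTGGCGC, TTTCCCGC, TTTGGCGG and TTTGGGAA as E2F-like, TTTGAA and TTCGAA as CHR-like, and CCAAT. Matches of different motifs did not overlap. E2F-like letters stood in 6 of 15 promoters of the replication and G1/S members (40%) and in 0 of 15 of the G2/M and mitosis members, beside 4.39% of 27025 genes with a promoter of the same length. CHR-like letters stood in 3 of 15 (20%) and 12 of 15 (80%), beside 21.7% of all genes. CCAAT stood in 9 of 15 (60%) and 14 of 15 (93.3%), beside 41.1% of all genes. The other genes of each pathway were split in the same order but less sharply. Among 40 other replication genes, 42.5% held E2F-like, 22.5% CHR-like and 55.0% CCAAT letters. Among 53 other mitosis genes, 15.1% held E2F-like, 64.2% CHR-like and 66.0% CCAAT letters. The words searched are not every form of an E2F site, so the 0 of 15 holds for these words only. The Cdk1 promoter, for example, reads tttcgcgc, which is close to TTTGGCGC and was not searched. A match is a description of letters and not a site of binding.

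The promoters of 2 helicase subunits, Mcm6 and Mcm3, are shown for the replication pattern, those of Cdk1 and Ccnb2 for the mitosis pattern, and that of Ccne1 because its level differed from the rest across libraries. All 5 lie on the minus strand of GRCm38.p6, at chr1:128359656-128359955 for Mcm6, chr1:20820263-20820562 for Mcm3, chr10:69352863-69353162 for Cdk1, chr9:70421505-70421804 for Ccnb2 and chr7:38107441-38107740 for Ccne1. They read 5′ to 3′ along the gene, and capitals mark the letters that matched a motif.
Mcm6: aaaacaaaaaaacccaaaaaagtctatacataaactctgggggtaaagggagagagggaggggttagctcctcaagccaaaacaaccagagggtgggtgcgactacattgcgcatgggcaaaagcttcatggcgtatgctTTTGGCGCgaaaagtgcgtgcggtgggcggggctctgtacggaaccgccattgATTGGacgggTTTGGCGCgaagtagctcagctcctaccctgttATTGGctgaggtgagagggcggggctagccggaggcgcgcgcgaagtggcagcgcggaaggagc
Mcm3: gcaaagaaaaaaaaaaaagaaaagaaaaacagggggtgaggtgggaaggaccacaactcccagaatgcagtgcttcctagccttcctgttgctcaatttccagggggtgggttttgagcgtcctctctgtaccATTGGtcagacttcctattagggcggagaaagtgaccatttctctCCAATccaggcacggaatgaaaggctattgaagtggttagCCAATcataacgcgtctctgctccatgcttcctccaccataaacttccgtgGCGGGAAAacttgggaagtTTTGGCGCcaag
Cdk1: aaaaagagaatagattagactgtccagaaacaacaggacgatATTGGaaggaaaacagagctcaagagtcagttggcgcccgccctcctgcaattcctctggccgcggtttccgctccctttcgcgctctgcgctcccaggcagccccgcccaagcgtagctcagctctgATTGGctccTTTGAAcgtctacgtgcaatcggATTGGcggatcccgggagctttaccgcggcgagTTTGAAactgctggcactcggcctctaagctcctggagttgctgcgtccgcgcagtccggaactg
Ccnb2: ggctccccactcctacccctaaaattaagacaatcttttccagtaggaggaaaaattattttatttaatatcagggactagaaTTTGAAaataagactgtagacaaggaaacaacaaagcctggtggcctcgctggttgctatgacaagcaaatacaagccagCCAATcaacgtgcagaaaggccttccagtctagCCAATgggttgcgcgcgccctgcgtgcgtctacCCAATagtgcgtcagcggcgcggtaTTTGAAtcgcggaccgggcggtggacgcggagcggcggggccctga
Ccne1: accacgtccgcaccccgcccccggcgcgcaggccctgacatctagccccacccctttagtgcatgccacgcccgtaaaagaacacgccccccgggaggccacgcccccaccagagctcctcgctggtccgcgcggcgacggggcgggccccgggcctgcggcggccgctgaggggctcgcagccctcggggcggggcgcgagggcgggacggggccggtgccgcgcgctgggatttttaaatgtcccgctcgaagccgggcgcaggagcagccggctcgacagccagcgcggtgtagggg

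Counting from 0 at the first transcribed base, Mcm6 held E2F-like letters at -110 to -103 and at -47 to -40, and Mcm3 held them at 19 to 26 and 38 to 45. Cdk1 held CHR-like letters at -71 to -66 and at -15 to -10, and Ccnb2 held them at -167 to -162 and at 4 to 9. Each of Cdk1 and Ccnb2 also held 3 CCAAT matches. The Ccne1 window held none of the letters searched. Those of E2f1, Tyms, Tk1 and Birc5 held none either, although their levels did not follow the pattern of Ccne1 across libraries. The E2f1 window, chr2:154569377-154569676, lay wholly inside the gene's span in the deposited table, chr2:154559407-154569892 on the minus strand. It therefore does not show the letters before the outermost start of E2f1. The windows of Cdc6 and Mcm7 also lay inside the spans of their genes. All of these windows are counted in the shares above. Ccne2 had no matched promoter. A link between the letters and the levels was not tested.

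Depth was 59206980 to 76830278 counts per library, and all 38 members passed the filter on low counts in every fit. Epcam, a general epithelial gene, stood at 1172 to 2744 CPM (counts per fixed library size, scaled by TMM), so epithelium was present in every library. Mitochondrial transcripts took 12.22 to 24.88% of counts in 6 libraries and 5.48 to 11.07% in the other 12. The 6 were saline library NCC_17, capsule library FFZRC_24 and tea library JHHCGC_48 of set C, and saline libraries NCX_134 and NCX_147 and tea library JHHCGX_256 of set X. Col2a1, a cartilage collagen, stood at 68.3 to 89.9 CPM in all 3 saline libraries of set C and in libraries NCX_124 and FFZRX_139, and at 0.285 CPM or less elsewhere. Sftpc, a lung surfactant gene, was found without Col2a1 in all 3 tea libraries of set C and in libraries JHHCGX_129, FFZRX_238 and FFZRX_268. In set C these transcripts from other tissues and the treatments cannot be told apart. Nothing ties libraries to mice, so p-values measure the spread between libraries, which may be technical. RNA was taken from 3 mice of each treatment, per the series' design text, yet each treatment has 6 libraries. Libraries of set C and set X may therefore come from the same mice, and the fits of all 18 libraries treat them as independent.

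On the FPKM scale, which allows for gene length, the members' medians over 18 libraries spanned 0.484 to 20.4. Pcna was the most abundant at 20.4 FPKM, followed by Cdc20, an activator of the anaphase-promoting complex, at 11.2 FPKM and the kinase Plk1 at 10.6 FPKM. Next came Ccnb2 at 8.70, the ubiquitin-conjugating enzyme Ube2c at 8.14, Mcm7 at 7.14 and Mcm6 at 6.81 FPKM. The lowest were the checkpoint kinase Bub1 at 0.706, the licensing factor Cdc6 at 0.699 and the kinetochore protein Cenpf at 0.484 FPKM. The ranges of neighbours overlapped widely: Cdc20 ran from 1.28 to 19.9 FPKM and Plk1 from 0.826 to 21.4 FPKM.

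Libraries of the same group differed widely. The ratio of the highest to the lowest CPM of a gene was 19.5 for Mcm5, 18.4 for Rrm2, 18.1 for Cdk1 and 3.05 for Pcna. Within a group of 3 libraries of the same treatment and set, the median of that ratio over the members was 2.23 in the capsule group of set X and 3.31 to 5.52 in the other 5 groups. Library JHHCGC_19, tea of set C, held the highest value of 20 members, and library NCC_8, saline of set C, that of 7. Libraries NCX_147, FFZRC_24, JHHCGX_256 and JHHCGC_48 held the lowest value of 12, 10, 8 and 7 members. All 4 were among the libraries with a mitochondrial share above 12%.

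**Figure D1:**
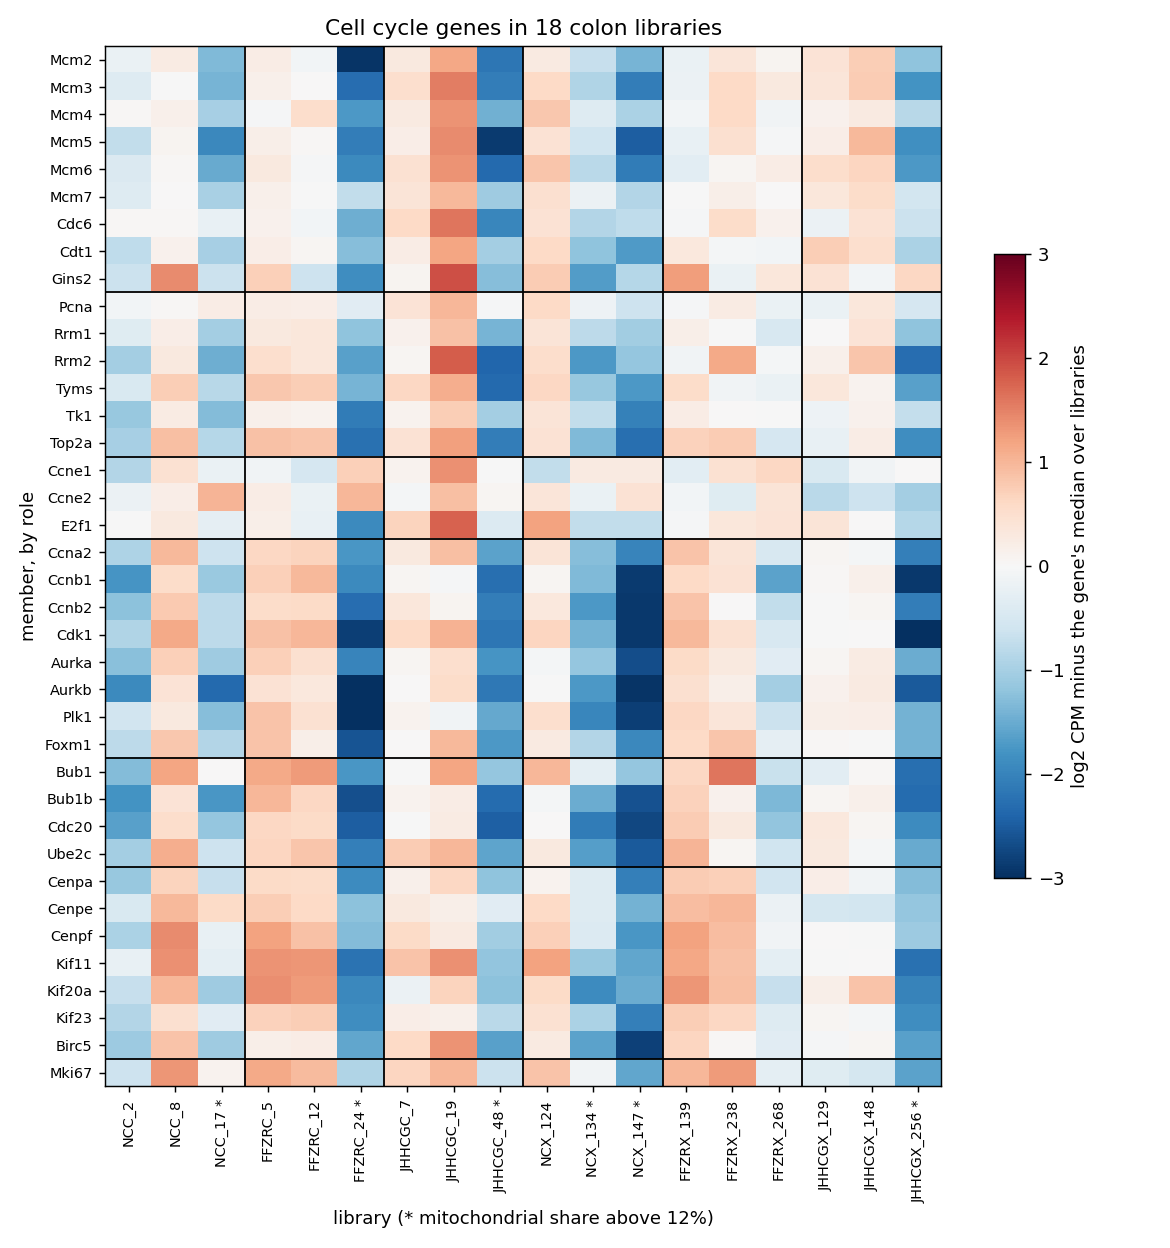
Heat map of the 38 members (rows, by role) in 18 libraries (columns, 3 per group), as log2 CPM minus the gene's own median over libraries, with red above and blue below it. Columns with a star are the 6 libraries with a mitochondrial share above 12%, which are blue for most members, and library JHHCGC_19 is the reddest column in the replication rows.

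Among the licensing genes, Mcm5 and Mcm6, both subunits of the helicase, shared their highest and their lowest library. Mcm5 stood at 11.9, 20.9 and 5.17 CPM in saline, 22.3, 20.4 and 4.71 in capsule and 22.7, 52.5 and 2.69 in tea libraries of set C (libraries NCC_2, NCC_8 and NCC_17, then FFZRC_5, FFZRC_12 and FFZRC_24, then JHHCGC_7, JHHCGC_19 and JHHCGC_48). In set X it stood at 26.8, 12.99 and 3.54 CPM in saline, 16.98, 27.7 and 19.2 in capsule and 22.7, 38.7 and 5.54 in tea (libraries NCX_124, NCX_134 and NCX_147, then FFZRX_139, FFZRX_238 and FFZRX_268, then JHHCGX_129, JHHCGX_148 and JHHCGX_256). The tea group of set C held both the highest and the lowest value, and within each set the groups overlapped. All values by library below follow this order. Mcm6 stood at 22.98, 31.9 and 10.9 CPM in saline, 38.01, 30.6 and 8.296 in capsule and 42.8, 79.8 and 6.22 in tea libraries of set C. In set X it stood at 56.02, 17.8 and 7.305, 24.9, 32.6 and 36.4 and 45.1, 49.1 and 9.397 CPM. Library JHHCGC_19 was again the highest and library JHHCGC_48 the lowest, and the groups overlapped. The sum of Mcm2 to Mcm7 was 332 CPM in library JHHCGC_19, 38.1 CPM in library JHHCGC_48 and 42.5 to 216 CPM in the other 16.

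Pcna, the sliding clamp, varied least. It stood at 45.9, 49.8 and 56.7 CPM in saline, 57, 56.1 and 38.5 in capsule and 64.7, 97.5 and 47.4 in tea libraries of set C. In set X it stood at 73.8, 43.7 and 31.97, 47.7, 57.6 and 42.6 and 42.6, 61.7 and 34.5 CPM. Library JHHCGC_19 was the highest and library NCX_147 the lowest, with overlap between all groups. Rrm2, the small subunit of ribonucleotide reductase, stood at 3.84, 9.39 and 2.78 CPM in saline, 11.03, 9.69 and 2.48 in capsule and 8.07, 27.3 and 1.49 in tea libraries of set C. In set X it stood at 11.2, 2.33 and 3.44, 7.22, 17 and 7.38 and 8.57, 13.7 and 1.57 CPM. Libraries JHHCGC_48 and JHHCGX_256, one of each tea group, were the lowest of all and library JHHCGC_19 the highest, and the groups overlapped.

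The E cyclins of the G1/S step followed another order of libraries, although Ccne1, like E2f1, was highest in library JHHCGC_19. E2f1 was lowest in library FFZRC_24. Cyclin E1 (Ccne1) stood at 2.25, 5.65 and 3.56 CPM in saline, 3.85, 2.91 and 6.74 in capsule and 4.42, 10.6 and 4.11 in tea libraries of set C. In set X it stood at 2.48, 4.97 and 4.99, 3.29, 5.67 and 6.32 and 3.02, 3.81 and 4.12 CPM. Library FFZRC_24, low for nearly all members, held the second highest Ccne1 value. Cyclin E2 (Ccne2, ENSMUSG00000028212, chr4:11191351-11204779 on the plus strand of GRCm38) stood at 6.63, 8.59 and 15.2 CPM in saline, 8.69, 6.51 and 14.9 in capsule and 7.14, 14.1 and 7.86 in tea libraries of set C. In set X it stood at 9.701, 6.52 and 10.1 CPM in saline, 7.12, 5.798 and 9.78 in capsule and 4.25, 4.83 and 3.69 in tea. The 3 tea libraries of set X were below the other 15 libraries. E2f1 stood at 3.97, 4.92 and 3.32 CPM in saline, 4.55, 3.44 and 1.07 in capsule and 6.41, 13.7 and 3.01 in tea libraries of set C. In set X it stood at 9.23, 2.402 and 2.42, 3.93, 5.13 and 5.38 and 5.27, 4.08 and 2.23 CPM. For Ccne1 and E2f1 the groups of a set overlapped.

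**Figure D2:**
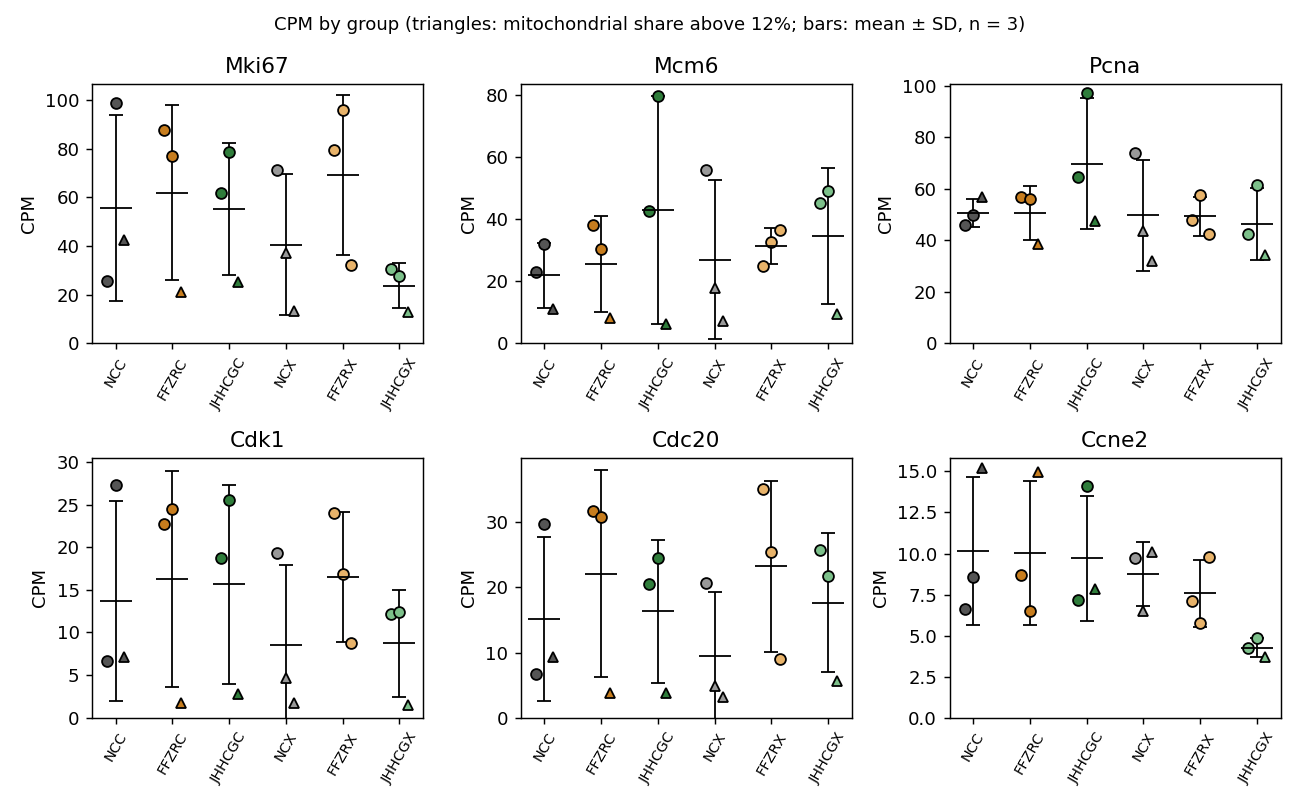
CPM of 6 members (panels) in the 6 groups on a linear axis from 0, with 1 symbol per library, triangles for the 6 libraries with a mitochondrial share above 12%, and bars for the mean ± SD of 3 libraries (cut at 0). For Mcm6 the triangles lie at the bottom of every group that holds one, for Cdc20 they do so except in the saline group of set C, where NCC_17 lies above NCC_2, and for Ccne2 the tea group of set X, at 3.69 to 4.83 CPM, lies below every other library.

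Of the G2/M genes, cyclin B1 (Ccnb1) stood at 3.49, 17.3 and 5.46 CPM in saline, 19.5, 23.1 and 3.17 in capsule and 12.3, 11.5 and 2.47 in tea libraries of set C. In set X it stood at 12.3, 4.72 and 1.61, 17.9, 16.1 and 3.87 and 12.2, 13.1 and 1.59 CPM. Its partner kinase Cdk1 stood at 6.65, 27.3 and 7.12 CPM in saline, 22.7, 24.5 and 1.73 in capsule and 18.7, 25.5 and 2.73 in tea libraries of set C. For Ccnb1 the lowest 8 libraries were the 6 with a high mitochondrial share together with libraries NCC_2 and FFZRX_268, from 1.59 to 5.46 CPM, and the other 10 stood at 11.5 to 23.1 CPM. In set X Cdk1 stood at 19.3, 4.604 and 1.67, 24.02, 16.8 and 8.78 and 12.2, 12.4 and 1.505 CPM. Polo-like kinase Plk1 stood at 16.3, 29.9 and 9.98 CPM in saline, 44.2, 33.3 and 2.84 in capsule and 26.3, 22.4 and 8.305 in tea libraries of set C. In set X it stood at 34.1, 6.29 and 3.41, 37.1, 31.1 and 15.6 and 27.4, 27.8 and 9.02 CPM. The same 8 libraries were the lowest for Cdk1 and for Plk1, and within a set the groups overlapped.

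Of the checkpoint genes, Bub1b, which holds back anaphase, stood at 2.48, 11.5 and 2.57 CPM in saline, 17.3, 13.3 and 1.38 in capsule and 9.31, 10.03 and 1.73 in tea libraries of set C. In set X it stood at 8.27, 3.05 and 1.402, 14.01, 9.47 and 3.397 and 8.97, 9.61 and 1.74 CPM. Each saline group had a single high library, NCC_8 in set C and NCX_124 in set X. Cdc20, whose protein Bub1b restrains, stood at 6.69, 29.7 and 9.25 CPM in saline, 31.7, 30.8 and 3.75 in capsule and 20.6, 24.5 and 3.79 in tea libraries of set C. In set X it stood at 20.7, 4.79 and 3.11, 35.1, 25.4 and 9.05 and 25.7, 21.7 and 5.61 CPM. The same 2 saline libraries were high for Cdc20, and the lowest 8 libraries of Bub1b and of Cdc20 were those of Ccnb1.

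Of the kinetochore and cytokinesis genes, Cenpf stood at 4.14, 21.5 and 6.86 CPM in saline, 18.4, 14.7 and 3.27 in capsule and 11.9, 9.58 and 3.901 in tea libraries of set C. In set X it stood at 13.1, 6.04 and 2.41, 18.6, 15.1 and 7.39 and 8.05, 7.96 and 3.75 CPM. The tea libraries of set X were low but overlapped both other groups. Cenpe, a kinetochore motor (ENSMUSG00000045328, chr3:135212537-135273611, plus strand), stood at 11.2, 5.72 and 2.804 CPM in saline, 14.1, 14.97 and 6.55 in capsule and 5.18, 5.08 and 3.31 in tea libraries of set X. In set C it stood at 5.44, 14.6 and 11.02, 12.4, 11.4 and 3.19 and 9.09, 8.47 and 5.93 CPM. In set X its tea libraries all lay below the capsule libraries, and in set C they overlapped. Birc5 (survivin), part of the chromosomal passenger complex, stood at 7.296, 27.9 and 7.35 CPM in saline, 17.3, 17.99 and 5.24 in capsule and 23.3, 39.1 and 4.96 in tea libraries of set C. In set X it stood at 18.8, 5.04 and 2.199, 24.3, 15.9 and 12.2 and 14.9, 15.98 and 4.98 CPM. Its highest and lowest libraries were JHHCGC_19 and NCX_147, and the groups overlapped.

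Mki67 (ENSMUSG00000031004, chr7:135689784-135716361, minus strand) encodes Ki-67, which coats mitotic chromosomes and marks cycling cells. It stood at 25.7, 98.6 and 42.5 CPM in saline, 87.8, 77 and 21.1 in capsule and 61.6, 78.8 and 25.4 in tea libraries of set C. In set X it stood at 71.3, 36.95 and 13.5 CPM in saline, 79.4, 95.8 and 32.3 in capsule and 30.6, 27.7 and 12.97 in tea. The tea group of set X, 23.7 ± 9.44 CPM (SD, n = 3), was the lowest of the 6 groups, below the capsule group of set X at 69.2 ± 33.0 CPM (SD, n = 3) without overlap, and overlapped the saline group at 40.6 ± 29.1 CPM (SD, n = 3). Fewer dividing cells and less RNA per cell cannot be told apart in bulk tissue.

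In the 6 libraries with a mitochondrial share above 12%, most members were low. The median level was lower there than in the other 12 for 36 of the 38 members. The ratio of the medians, the 12 over the 6, had a median of 3.62 over the members and 1.03 over the 22380 genes of the joint fit. It was 8.53 for Cdk1, 6.25 for the kinase Aurkb, 5.82 for Cdc20 and 1.38 for Pcna. The exceptions were the E cyclins, with ratios of 0.843 for Ccne1 and 0.795 for Ccne2. All 6 libraries lay below all 12 for 14 members: Mcm2, Mcm3, Mcm4, Mcm6, Cdc6, Cdt1, E2f1, Rrm1, Rrm2, Tyms, Foxm1, Plk1, Kif11 and Kif20a. The same held for 452 of the 22380 genes. These libraries were set apart by the data and not by the labels, so no test was made.

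Goblet and plasma cell genes also separated along this split, while the ranges of the other marker lists overlapped. The summed level of 8 goblet cell genes was 191 to 1140 CPM in the 6 libraries and 1820 to 16400 CPM in the 12. That of 8 smooth muscle genes was 9780 to 34500 CPM in the 6 and 2790 to 11500 CPM in the 12. For 10 crypt base and transit amplifying genes it was 212 to 335 CPM against 293 to 536 CPM, and Lgr5, the stem cell marker, was 0.384 to 3.07 CPM against 1.5 to 9.35 CPM. For 8 surface colonocyte genes it was 7020 to 16400 CPM against 4660 to 12700 CPM. For 8 plasma cell genes it was 213 to 478 CPM against 486 to 1160 CPM, without overlap. For 8 macrophage genes it was 32.7 to 86.2 CPM against 69.6 to 142 CPM, and for 10 T cell genes 8.19 to 50.3 CPM against 19.5 to 131 CPM. For 10 B cell genes it was 3.17 to 250 CPM against 26.6 to 607 CPM, and for 8 germinal centre B cell genes 36.8 to 78 CPM against 34.6 to 111 CPM. For 8 genes of the whole colonic epithelium it was 7510 to 17900 CPM against 9660 to 18200 CPM. For 8 red cell precursor genes it was 12.6 to 87.3 CPM against 25.8 to 351 CPM. Cartilage, lung, adipocyte and skeletal muscle lists overlapped as well. The part of any of these cell types in the levels of the members was not tested.

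**Figure D3:**
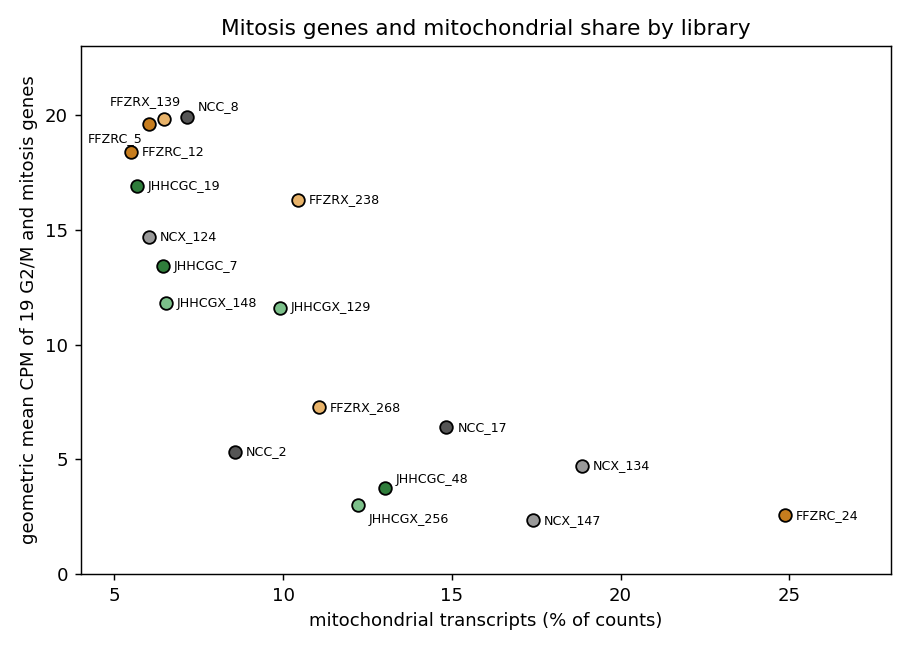
Each point is 1 of 18 libraries, coloured by group, with the mitochondrial share of counts (percent) on the horizontal axis and the geometric mean CPM of the 19 G2/M, checkpoint and kinetochore members on the vertical axis. The 6 libraries above 12% lie at 2.34 to 6.40 CPM, and libraries NCC_2 and FFZRX_268, with 8.57 and 11.07% mitochondrial counts, are also low at 5.34 and 7.28 CPM.

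Replication and mitosis genes were not in a fixed proportion. The geometric mean CPM of the 9 licensing genes, divided by that of the 19 G2/M, checkpoint and kinetochore members, ran from 0.840 in library FFZRX_139 to 2.67 in library JHHCGX_256. Libraries NCC_2 and FFZRX_268 had licensing levels of 12.2 and 17.1 CPM beside mitosis levels of 5.34 and 7.28 CPM, with ratios of 2.29 and 2.35. The licensing level of NCC_2 was the lowest of the 12 libraries without a high mitochondrial share. Library JHHCGC_19 had the highest licensing level, 42.0 CPM, with a mitosis level of 16.9 CPM and a ratio of 2.48. The highest mitosis level was 19.9 CPM, in library NCC_8. Over 63 other mitosis genes the geometric mean was highest in library JHHCGC_19, at 10.6 CPM, beside 10.2 CPM in library NCC_8. Within every group the ratio differed between libraries, for example from 0.840 to 2.35 in the capsule group of set X.

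In set C, tea and saline could not be separated for any member. The fold changes were positive for 33 of 38 members, with a median log2 of 0.38 beside 0.01 for all 20964 genes tested. Licensing genes leaned highest: 9 of 9 were positive with a median of 0.78, whereas the 8 G2/M genes had a median of 0.14 and Mki67 a value of 0.01 ± 0.67 (SE). No member passed an adjusted p of 0.05 in edgeR's quasi-likelihood test, DESeq2 or limma, and none had an unadjusted p under 0.05 in edgeR. Over all genes the first rule called 0% in edgeR, 0.764% in DESeq2 and 0.515% in limma, and the second 3.19%. The 3 smallest p belonged to Pcna at 0.49 ± 0.29, the helicase subunit Mcm7 at 0.75 ± 0.49 and E2f1 at 0.95 ± 0.63 with an adjusted p of 1 for each. Groups without overlap were found for 0 members, beside 10.9% of genes. Without library JHHCGC_19 the median became -0.14, and without library NCC_8 it became 1.01.

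The other genes of the pathway did not pass either. Of 50 other replication genes, 46 were positive in tea against saline of set C (median log2 0.57). The smallest p belonged to the polymerase delta subunit Pold3 at 0.44 ± 0.18 (adjusted p = 1) and to the polymerase alpha subunit Pola2 at 0.80 ± 0.36 (adjusted p = 1). Of 63 other mitosis genes, 48 were positive (median log2 0.25), with the smallest p for Mybl2, which encodes B-Myb, at 1.14 ± 0.74 and the phosphatase Cdc25a at 0.39 ± 0.27. Of 20 cell cycle brakes 10 were positive, and the retinoblastoma family genes Rb1 and Rbl2 stood at -0.40 ± 0.24 and -0.26 ± 0.17. Of 16 G1 entry genes 12 were positive, with E2f2 at 0.96 ± 0.41 and E2f4 at 0.37 ± 0.18. All 8 named had an adjusted p of 1, and 0 genes of the 4 lists passed in either direction.

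The capsule and saline groups of set C also overlapped for every member (0 members without overlap, beside 13.3% of genes). Fold changes were positive for 32 of 38, with a median log2 of 0.27 beside 0.05 for all genes. The largest shifts were in mitosis: Bub1b at 0.97 ± 0.99, Ccnb1 at 0.82 ± 0.88 and the cytokinesis motor Kif20a at 0.81 ± 0.87 had the smallest p (adjusted p = 1 for each). Licensing genes had a median of 0.16 and Pcna a value of 0.02 ± 0.29. In edgeR 0 members were called and 0 had an unadjusted p under 0.05, beside 0.11% and 5.75% of genes, and DESeq2 and limma called 0, beside 1.95% and 1.05% of genes. Of the other lists, 41 of 50 replication and 56 of 63 mitosis genes were positive, and 0 passed. The condensin gene Ncapg stood at -1.31 ± 0.75 and the cohesin protector Sgo2a at 0.60 ± 0.39 (adjusted p = 1 for both). The origin recognition gene Orc3 stood at 0.36 ± 0.19 (adjusted p = 0.983) and Pold3 at 0.29 ± 0.18 (adjusted p = 1). Among the brakes, Cdkn2a was listed at 0 in all 3 capsule libraries and at 0.378, 0.586 and 0.298 CPM in saline (adjusted p = 0.132). Its levels were near 0 throughout, at 0.586 CPM or less in all 18 libraries. It was 0 in every library with neither Col2a1 nor Sftpc above 10 CPM, among them saline libraries NCX_134 and NCX_147. Libraries JHHCGX_129 and FFZRX_238, which carried Sftpc, were also at 0. Rbl1 stood at 0.27 ± 0.16 (adjusted p = 1). Among G1 entry genes, E2f2 stood at 0.35 ± 0.41 and cyclin D2 (Ccnd2) at 0.36 ± 0.43 (adjusted p = 1 for both). Without library FFZRC_5 the member median was -0.08, and without library NCC_8 it was 0.89.

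Between tea and capsule in set C the median log2 was 0.03 and the signs were mixed, 21 positive and 17 negative. Replication and mitosis leaned apart: 9 of 9 licensing genes were positive (median 0.72), while 6 of 8 G2/M and 6 of 7 kinetochore, spindle and cytokinesis genes were negative (medians -0.16 and -0.20). The geometric mean of the licensing genes was 20.2, 42.0 and 4.60 CPM in the tea libraries and 18.7, 15.8 and 4.58 CPM in the capsule libraries. Only library JHHCGC_19 stood far above the capsule libraries. The split between these roles was not tested. The smallest p belonged to E2f1 at 1.35 ± 0.63 (adjusted p = 0.944), Pcna at 0.47 ± 0.29 (adjusted p = 0.994) and Cdc6 at 1.01 ± 0.75 (adjusted p = 1). In edgeR 0 members were called and 0 had an unadjusted p under 0.05, beside 0.0143% and 5.22% of genes. DESeq2 and limma called 0 members, beside 0.908% and 0.0334% of genes, and 0 were without overlap, beside 8.84% of genes. Of 50 other replication genes 44 were positive, and the smallest p belonged to Orc3 at -0.34 ± 0.19 and the fork protection gene Tipin at 0.71 ± 0.39. Of 63 other mitosis genes 30 were positive, and the smallest p belonged to Sgo2a at -0.78 ± 0.39 and the inhibitory kinase Pkmyt1 at 0.82 ± 0.60. None of these passed (adjusted p of 0.945 to 1). Of 20 brakes 9 were positive, with Rbl2 at -0.42 ± 0.17 (adjusted p = 0.944). Cdkn2a was at 0 in the capsule libraries and 0.145, 0.343 and 0.316 CPM in tea (adjusted p = 0.625). These Cdkn2a levels were near 0, and the tea libraries carried lung transcripts while the capsule libraries did not. Of 16 G1 entry genes 10 were positive, with E2f2 at 0.61 ± 0.41 and E2f4 at 0.26 ± 0.18 (adjusted p = 1 for both). Without library JHHCGC_19 the member median was -0.42, and without library JHHCGC_48 it was 0.57.

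In set X, Ccne2 was the member that set tea apart from saline. Its level was 4.26 ± 0.573 CPM in tea and 8.77 ± 1.95 CPM in saline (SD, n = 3), a log2 difference of -1.04 ± 0.29 with the tea libraries below the saline libraries in 3 of 3. The adjusted p by edgeR was 0.137, which does not pass. DESeq2 gave -1.02 ± 0.30 with an adjusted p of 0.0104, a rule under which it called 1 of 38 members beside 11.1% of genes, and limma on log2(FPKM + 0.1) an adjusted p of 0.187 (0 members called, beside 0.00479% of genes). Leaving out each library in turn moved the value from -1.19 to -0.93. By edgeR 0 members were called, 1 had an unadjusted p under 0.05 and 1 was without overlap, beside 0%, 17.1% and 20.9% of genes, so the members' share was below the background.

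Most of the other members had positive values in tea against saline of set X, 28 of 38, with a median log2 of 0.27 beside -0.06 for all 20889 genes. Mki67 at -0.77 ± 0.61 (adjusted p = 0.562) and Mcm2 at 0.64 ± 0.53 (adjusted p = 0.581) were next by p. Licensing genes had a median of 0.51, G2/M genes of 0.49 and kinetochore, spindle and cytokinesis genes of 0.10, with Cenpe at -0.54 ± 0.51 and Aurkb at 0.80 ± 0.85. Without library NCX_124, the only saline library of set X with a low mitochondrial share, the median was 1.22, and without library NCX_147 it was -0.03. Without the 3 libraries of these groups with a high mitochondrial share, which leaves 1 saline library, 9 of 38 members were positive and the median was -0.27.

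Other cell cycle genes came closer to the threshold in the same comparison, and 0 passed. The condensin ATPase Smc4 stood at 41.6, 35.96 and 51.7 CPM in saline and 16.8, 13.3 and 12.2 CPM in tea. The groups did not overlap, and the log2 difference was -1.61 ± 0.29 (adjusted p = 0.0682). The origin recognition gene Orc4 stood at 26.7, 27.3 and 32.2 CPM in saline and 15.4, 14.1 and 15.98 CPM in tea, at -0.92 ± 0.19 (adjusted p = 0.0827), and Orc2 was at -0.59 ± 0.22 (adjusted p = 0.226). Cdkn2b, an inhibitor of the cyclin D kinases, stood at 41.5, 46.2 and 33.4 CPM in saline and 74, 79.3 and 108 CPM in tea, at 1.11 ± 0.25 (adjusted p = 0.0929). Cyclin G1 (Ccng1) was at -0.80 ± 0.21 (adjusted p = 0.117) and Cdc25a at 0.66 ± 0.20 (adjusted p = 0.147). Of the G1 entry genes, the repressor E2f6 was at -0.66 ± 0.26 (adjusted p = 0.246) and E2f4 at 0.35 ± 0.17 (adjusted p = 0.335). By list, 29 of 50 replication genes, 42 of 63 mitosis genes, 10 of 20 brakes and 11 of 16 G1 entry genes were positive.

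Capsule against saline in set X gave the most one-sided signs, with 36 of 38 members positive and a median log2 of 0.83 beside 0.01 for all genes. Mitosis genes lay highest: the 8 G2/M genes ran from 0.94 to 1.15 and the 4 checkpoint genes from 0.69 to 1.29. The licensing genes had a median of 0.52, and Pcna stood at -0.01 ± 0.33. The smallest p belonged to the transcription factor Foxm1 at 1.05 ± 0.59, Aurora kinase A (Aurka) at 1.15 ± 0.65 (adjusted p = 0.585 for both) and Cenpe at 0.85 ± 0.51 (adjusted p = 0.609). By edgeR 0 members were called, 0 had an unadjusted p under 0.05 and 0 were without overlap, beside 0%, 9.64% and 12.7% of genes. DESeq2 and limma called 0, beside 1.14% and 0.0239% of genes. Saline of set X held 2 of the 6 libraries with a high mitochondrial share and the capsule group held none. Leaving out library NCX_124 moved the median to 1.69 and leaving out library NCX_147 moved it to 0.47. Without the libraries with a high mitochondrial share, which leaves 1 saline library, 12 of 38 members were positive and the median was -0.15.

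Among the other lists in capsule against saline of set X, 60 of 63 mitosis genes (median log2 0.70) and 41 of 50 replication genes (median 0.36) were positive. Cdc25a stood at 0.73 ± 0.20 and the passenger complex gene Incenp at 0.89 ± 0.37. Orc2 and Orc4 stood at -0.53 ± 0.22 and -0.45 ± 0.19. Of the brakes, Cdkn2b stood at 0.998 ± 0.252 and Cdkn1c at 0.78 ± 0.28. Of the G1 entry genes, E2f6 stood at -0.79 ± 0.26 and E2f3 at 0.56 ± 0.20. All 8 had an adjusted p of 0.517, and 0 genes of the 4 lists passed. Both comparisons with saline of set X share their saline libraries.

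**Figure D4:**
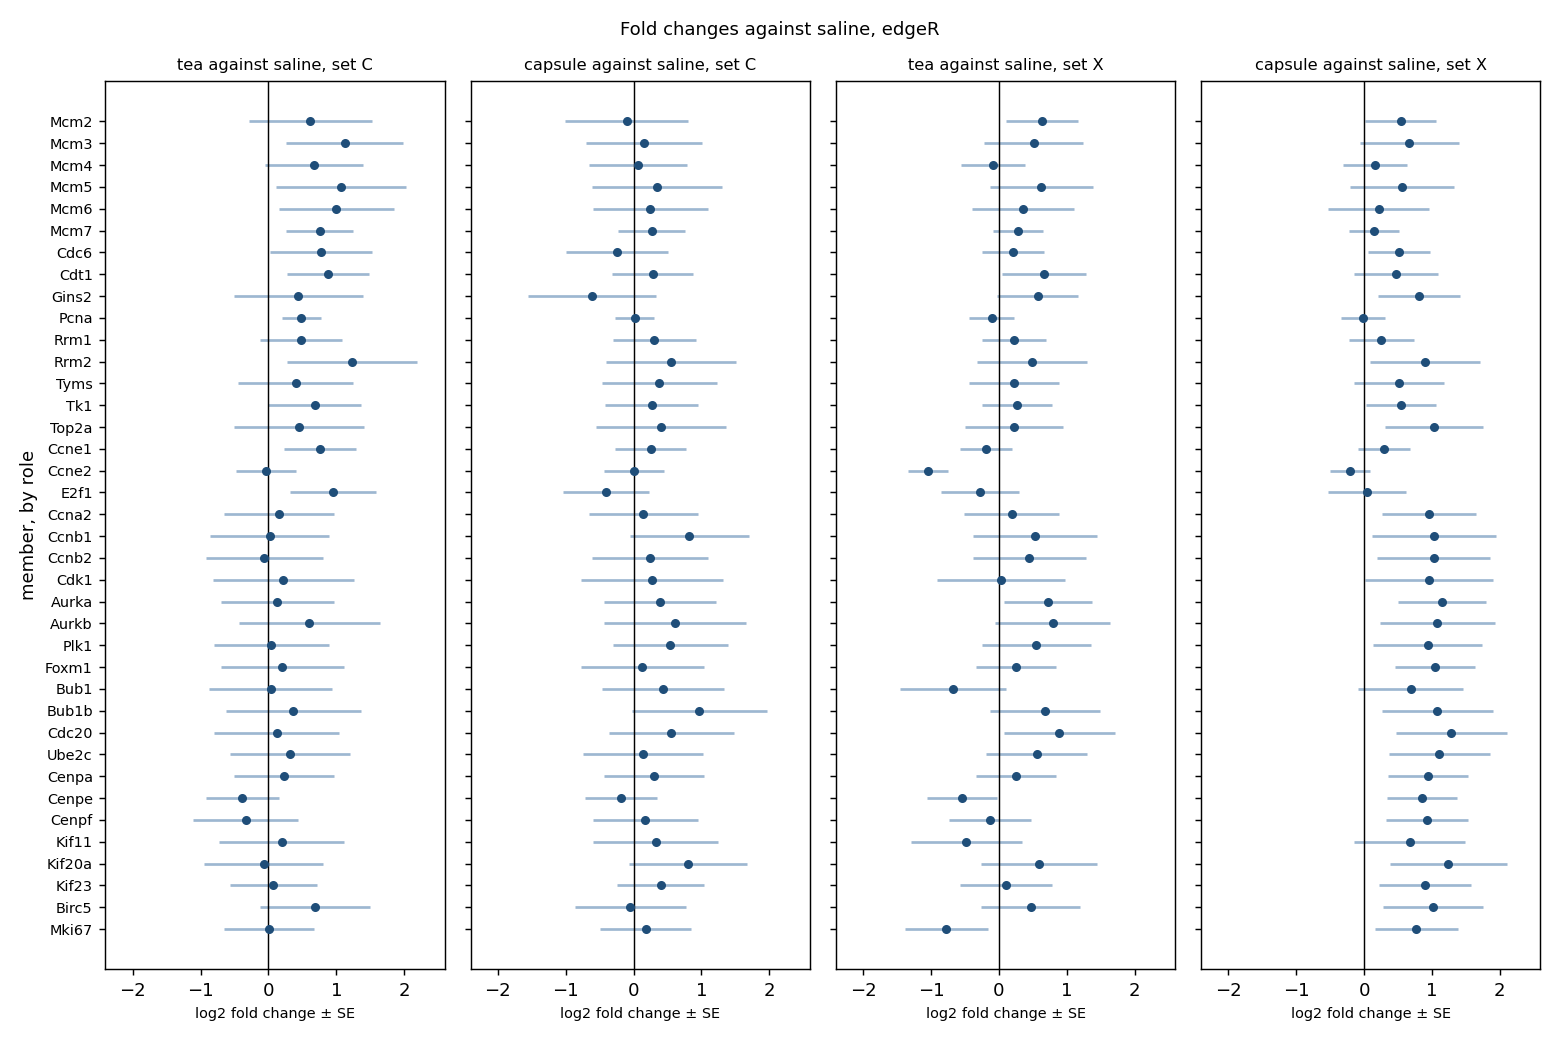
Log2 fold change ± SE (edgeR, horizontal axis) of the 38 members (rows, by role) for tea and capsule against saline in each set (4 panels). Ccne2 in tea against saline of set X lies at -1.04 ± 0.29, and points lie right of 0 for 36 of 38 members in capsule against saline of set X.

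Tea against capsule in set X gave mostly negative values, 33 of 38, with a median log2 of -0.42 beside -0.01 for all genes. The tea and capsule libraries did not overlap for 3 members, all lower in tea: Ccne2 at -0.83 ± 0.29 (adjusted p = 0.691), Cenpe at -1.40 ± 0.51 (adjusted p = 0.714) and Mki67 at -1.54 ± 0.61 (adjusted p = 0.781). Of the helicase genes, Mcm2, Mcm5, Mcm6 and Mcm7 lay between 0.07 and 0.14, Mcm3 at -0.15 ± 0.73 and Mcm4 at -0.25 ± 0.47, and Pcna stood at -0.09 ± 0.33. Kinetochore, spindle and cytokinesis genes had a median of -0.80 and G2/M genes of -0.54. By edgeR 0 members were called, 3 had an unadjusted p under 0.05 and 3 were without overlap, beside 0%, 5.91% and 13.6% of genes. DESeq2 and limma called 0, beside 1.16% and 0.0191% of genes. Without the libraries with a high mitochondrial share, of which only tea library JHHCGX_256 is in these groups, 15 of 38 members were positive and the median was -0.07. The difference between licensing and kinetochore genes was not tested.

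The other mitosis genes leaned the same way, 60 of 63 negative with a median log2 of -0.63, as did 38 of 50 replication genes (median -0.19). Smc4 stood at 37.5, 51.3 and 22.9 CPM in capsule libraries of set X and at -1.40 ± 0.29 in tea against capsule (adjusted p = 0.516), and Sgo2a at -1.001 ± 0.388 (adjusted p = 0.755). The repair gene Brca2 was at -1.002 ± 0.363 (adjusted p = 0.703) and the chromatin remodeller Hells at -1.51 ± 0.56 (adjusted p = 0.721). Rb1 was at -0.43 ± 0.14 (adjusted p = 0.631). Cyclin D3 (Ccnd3) was at 0.22 ± 0.17 and the repressor E2f7 at -1.11 ± 0.86 (adjusted p = 1 for both). Cdkn2a was at 0 in the tea libraries and at 0.257, 0 and 0.195 CPM in the capsule libraries. Of the 4 lists 0 genes passed.

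The 5 lowest values in tea against capsule of set X belonged to Mki67, Cenpe, Bub1, Kif11 and Cenpf. Their gene lengths, as implied by counts and FPKM, were 10777, 9324, 4717, 8043 and 16577 bases, while Rrm1, at -0.04 ± 0.47, has 11850. Spearman's rho between length and log2 fold change was -0.29 over the 38 members and -0.08 over all genes, and in tea against saline of set X -0.41 and -0.24. These are descriptions across genes of the same libraries and not tests. When a smooth trend of counts on length was removed from each library, an alternative chosen after seeing the data, Ccne2 stayed at -1.02 ± 0.29 against saline (adjusted p = 0.143) and -0.83 ± 0.29 against capsule (adjusted p = 0.774). Mki67 became -1.38 ± 0.67 (adjusted p = 0.934) and Cenpe -1.27 ± 0.56 (adjusted p = 0.898). The ratio of Mki67 to Ube2c, chosen after the values were seen, was 1.13, 1.32 and 1.68 in tea libraries JHHCGX_129, JHHCGX_148 and JHHCGX_256 and 1.64 to 5.30 in the other 15 libraries.

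**Figure D5:**
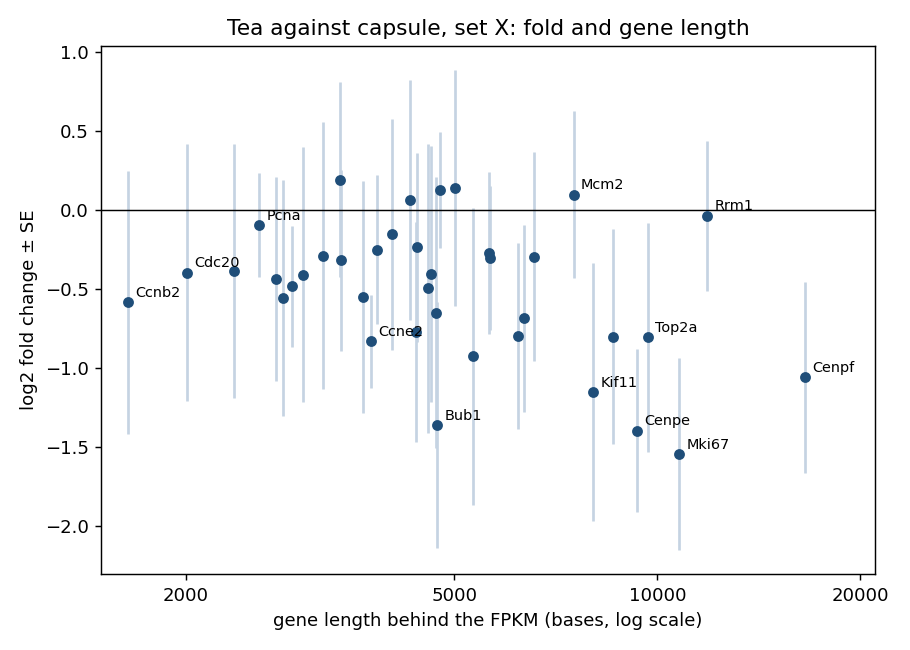
Log2 fold change ± SE of tea against capsule in set X (vertical axis) against gene length in bases (horizontal log axis) for the 38 members, with 12 named. Mki67, Cenpe and Cenpf lie at -1.54, -1.40 and -1.06 on the right, Bub1 at -1.36 lies near the middle of the lengths, and Rrm1 at -0.04 is a long gene near 0.

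With both sets averaged in the 18-library fit, no member passed either. For tea against saline the members had a median log2 of 0.31 (32 of 38 positive). The smallest p belonged to Ccne2 at -0.55 ± 0.27 (adjusted p = 0.331), Cdt1 at 0.76 ± 0.45 and Mcm7 at 0.50 ± 0.32. In this comparison 113 genes, 0.505% of those tested, were called, and 16% had an unadjusted p under 0.05, with 0 members under either rule. For capsule against saline the median was 0.48 (35 of 38 positive), with the smallest p for Kif20a at 1.01 ± 0.65, Bub1b at 1.01 ± 0.68 and Cdc20 at 0.91 ± 0.66, with 0 members under either rule beside 0.00447% and 9.4% of genes. For tea against capsule the median was -0.27, with the smallest p for Cenpe at -0.80 ± 0.39, Mki67 at -0.85 ± 0.48 and Ccne2 at -0.44 ± 0.27, with 0 members under either rule beside 0% and 8.92% of genes. Without the 6 libraries with a high mitochondrial share these 3 medians were 0.147, 0.155 and -0.055. DESeq2 called 0 members in these 3 comparisons, beside 6.96%, 0.724% and 1.47% of genes, and limma 0, beside 0.0536%, 0.0179% and 0.00447%.

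The difference of an effect between the sets was tested as an interaction. For tea, the effect in set X minus that in set C had a member median of -0.18 (22 of 38 negative). The smallest p belonged to Ccne2 at -0.98 ± 0.54, Ccne1 at -0.92 ± 0.66 and E2f1 at -1.20 ± 0.89, and 0 members fell under either rule beside 0% and 6.01% of genes. For the capsule the median was 0.48 (33 of 38 positive), with the smallest p for Cenpe at 1.06 ± 0.77, Gins2, a subunit of the active helicase, at 1.44 ± 1.19 and Birc5 at 1.08 ± 1.17, with 0 members under either rule beside 0.0134% and 6.73% of genes. This median turned to -0.71 (2 of 38 positive) without the 6 libraries with a high mitochondrial share and to -1.26 with a term for the kind of other-tissue transcripts, and Cenpe and Birc5 turned negative in both. Over the 3 treatments, set X against set C had a median of -0.17 (31 of 38 negative). Ccne2 was at -0.60 ± 0.22 (adjusted p = 0.629), Mki67 at -0.50 ± 0.39 and Pcna at -0.22 ± 0.18. In it 0 members were called and 1 had an unadjusted p under 0.05, beside 0.0402% and 7.15% of genes. DESeq2 called 0 members in these 3 comparisons, beside 0.529%, 0.641% and 0.685% of genes, and limma 0, beside 0.00447%, 0.384% and 0.0447%.

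Leaving out the 6 libraries with a high mitochondrial share left 2 libraries in each group of set C, 3 capsule, 2 tea and 1 saline library in set X, and 0 members called in the 12 comparisons. In tea against saline of set C 8 members then had an unadjusted p under 0.05, all of replication and the G1/S step and all higher in tea, beside 8.18% of genes. Mcm3 stood at 1.33 ± 0.35, Mcm6 at 1.18 ± 0.33, Pcna at 0.79 ± 0.22 and E2f1 at 1.20 ± 0.40 (adjusted p = 0.588 to 0.589), and the others were Mcm7, Mcm5, Cdc6 and Cdt1. Library JHHCGC_19 is 1 of the 2 tea libraries behind these values. For tea, set X minus set C, 8 members had an unadjusted p under 0.05, all negative, beside 6.3% of genes, and the median was -0.97, resting on 1 saline library in set X. In tea against capsule the members under 0.05 were 6 in set C, 4 in set X and 8 over both sets, beside 18.8%, 6.37% and 15.4% of genes. In tea against saline there were 2 in set X and 2 over both sets, beside 7.51% and 11.9%. In capsule against saline there were 0 in set C, 2 in set X and 0 over both sets, beside 17%, 3.18% and 7.57%. For the capsule effect, set X minus set C, there were 2 beside 9.59%, and for set X against set C 0 beside 6.59%.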

How the data were processed

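Per the labels' protocols, polyadenylated colon RNA was sequenced. The authors deposited 1 table in which, per the file headers, every library has a column of read counts per gene and a column of FPKM. The deposited counts are unnormalized whole numbers, and each FPKM value is close to the count scaled by gene length and by the library's total. The gene length that this implies for a member varied by up to 8.4% between libraries, so the scaling by the total is not exact. The submitters' processing notes name cutadapt (1.9), HISAT2 (2.0.4), StringTie (1.3.4d) and edgeR without saying what each did. The labels name a human build, whereas 33866 of the 33977 identifiers were found in the mouse GENCODE M21 annotation of GRCm38. Chromosome, start and end were the same there for 29779 of these genes and for 37 of the 38 members. Strandedness and the handling of reads that map to several copies are not given in the sources used here, and overlapping or antisense genes therefore cannot be told apart.

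Groups were taken from the labels. Counts were tested with edgeR 4.0.16 (R 4.3.3): TMM scaling, filterByExpr with a minimum count of 10, the quasi-likelihood test and Benjamini-Hochberg adjustment over all genes tested, with a threshold of 0.05. Set C and set X were fitted apart (9 libraries, 6 residual degrees of freedom each; biological coefficients of variation 0.556 and 0.559), and all 18 libraries together for the other 6 comparisons (12 residual degrees of freedom; 0.59). The SE of a log2 fold change was computed from the fitted means, the negative binomial dispersion and the moderated quasi-dispersion. The scripts were tested on simulated counts. Alternatives were RLE scaling, no filter on low counts, DESeq2 1.42.0, limma 3.58.1 on log2(FPKM + 0.1) and log2(FPKM + 1), 1 fit of all 18 libraries, each library left out, the 6 libraries with a high mitochondrial share left out, a term for the kind of other-tissue transcripts (cartilage, lung or neither, by 10 CPM), and removal of each library's trend of counts on gene length.

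The members, gene lists and tests were chosen with earlier results of these data known. By rule, values in every library were given for 14 members covering each role, the 3 members with the smallest p were named in each comparison, and of each other list the 2 genes with the smallest p were named in the pairwise comparisons within a set. Ccne2, Cenpe and Ube2c by library, and the members named outside this rule, were chosen after their values were seen. Differences between libraries of a group exceeded counting noise, and no library was a copy of another of its group. Only pairs within a group were compared in this way.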

Additional observations from a re-analysis of the deposited data

Results flagged for a closer look

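Cyclin E1 (Ccne1), which activates Cdk2 at the G1/S step, had tea differences of opposite sign in set C and set X. All 3 tea libraries of set C lay above the mean of their saline group, and all 3 of set X lay below theirs. The groups overlapped in both sets. In set C only library JHHCGC_19, at 10.6 CPM, lay above the saline range of 2.25 to 5.65 CPM. In set X the tea libraries, at 3.02, 3.81 and 4.12 CPM, lay within the saline range of 2.48 to 4.99 CPM. The interaction, the tea effect of set X minus that of set C, was -0.92 ± 0.66 on the log2 scale (edgeR, adjusted p = 0.931), so the difference did not pass the test. Leaving out tea library JHHCGC_19 moved it to -0.34.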

How the results depend on the processing

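No member passed an adjusted p of 0.05 in any of the 12 comparisons by edgeR, by limma, or in any edgeR alternative run. DESeq2 called 1 member in tea against saline of set X, Ccne2 at -1.02 (adjusted p = 0.0104), where it called 11.1% of all genes. With a term for the kind of other-tissue transcripts the member median of capsule against saline in set C was 1.70 in place of 0.27. In set C the kind was the same in all libraries of a treatment, so the term was estimated from set X alone. Set C itself cannot tell kind and treatment apart. In saline of set X the kind ran with the mitochondrial share. Library NCX_124 carried cartilage transcripts at 6.02% mitochondrial counts, and libraries NCX_134 and NCX_147 were of neither kind at 18.9 and 17.4%. Kind and mitochondrial share cannot be told apart in that group. The capsule effect, set X minus set C, had a member median of 0.48, which became -0.71 without the 6 libraries with a high mitochondrial share and -1.26 with the term for kind. Of its members, Cenpe became -0.19 and Birc5 -0.13 without the 6 libraries, and Cenpe -0.33, Gins2 -0.33 and Birc5 -1.12 with the term, and the cause was not tested. The other member medians moved by less than 1.02, the SD between libraries of a group. Leaving out 1 library moved the median from -0.14 to 1.01 (tea), -0.08 to 0.89 (capsule) and -0.42 to 0.57 (tea against capsule) in set C. In set X it moved from -0.03 to 1.22, 0.47 to 1.69 and -0.67 to -0.07, and the tea effect, set X minus set C, from -0.78 (without library NCC_8) to 0.76 (without library NCX_124). The number of genes called over the 12 comparisons was 0 to 113, 0 to 62 with RLE, 0 to 24 without a filter, 0 to 215 without the 6 libraries, 0 to 381 with the term, 0 to 21 with the length trend removed (chosen after seeing the data), 118 to 1943 by DESeq2, 1 to 220 and 1 to 233 by limma with a pseudocount of 0.1 and 1, and 0 to 540 with 1 library left out. In 1 fit of all 18 libraries the 6 comparisons within a set had 0 to 448. No paired analysis was possible because the groups share no library numbers. With 3 libraries a group, the SE of a member's log2 fold change within a set ran from 0.285 (Pcna) to 1.04 (Cdk1), which limits what each gene could show.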
